A study of Mus musculus with 2 samples.

Results

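The BCL2 family of apoptosis regulators was examined on single-colour DNA microarrays of cultured mouse ovary, through 10 genes taken by name: the pro-survival genes Bcl2, Bcl2l1 and Mcl1, the pro-death effectors Bax and Bak1, and the BH3-only genes Bcl2l11, Bbc3, Pmaip1, Bid and Bad. Their probes were found by the RefSeq transcript that the array design gives for each probe, which yielded 13 of the 55674 probes that are not controls, and 10 of the 20658 genes that could be named. All 13 probes were printed at 1 spot, and all 13 were well above background on both arrays by the image analysis software's own criterion. None of these 26 spots was saturated or marked as an outlier. Signals of different probes are not comparable as levels of RNA, so ratios are taken only within a probe. Bcl2l1, Mcl1 and Bad had 2 probes each and the other 7 genes had 1.

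Tachykinins (TKs) are neuropeptides with the receptors TACR1, TACR2 and TACR3 (TKRs). Pieces of ovary from mice aged 2 weeks were kept in culture with ligands of these receptors for 3 days. The agonist group received a substance P analogue acting on TACR1 ([Sar9, Met(O2)11]-SP), GR-64349 for TACR2 and a modified fragment of substance P for TACR3. The antagonist group received an antagonist of each receptor, among them GR-94800 for TACR2 and SB218795 for TACR3. The concentration of every ligand was 1 μM. There was 1 array in each group. Untreated ovaries were not analysed here, so a difference between the arrays does not show which group departed from the untreated level. The mouse strain and the number of ovaries behind each RNA are not given in the sources used here. A single array per group gives no estimate of the spread between ovaries, so there is no test and no p-value.

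Cells of an ovary live or die largely through this family. Bax and Bak1 are the effectors that open pores in the outer mitochondrial membrane, which releases cytochrome c and leads to activation of caspases. Bcl2, BCL-XL (the long product of Bcl2l1) and Mcl1 hold the effectors in check, and the BH3-only proteins bind these guardians, or the effectors themselves, and tip the balance towards death. In the ovary this machinery removes granulosa cells from follicles that undergo atresia, and it removes oocytes after DNA damage, where Bbc3 (PUMA) and Pmaip1 (NOXA) are known to act downstream of TAp63 and p53.

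After scaling on the 75th percentile of each array, 0 of the 10 members differed by as much as 1.5-fold, and 9.26% of the 15260 named genes well above background on both arrays were higher by 1.5-fold or more with the agonists and 4.28% were lower by as much. Such a count of 0 in 10 genes is near these shares. It also depends on the scaling: 2 members, Pmaip1 and Bbc3, were past 1.5-fold without scaling or when scaled on spike-in controls, and 1, Pmaip1, with 3 other settings. The share of all genes at least 1.5-fold higher was 15.5% without scaling and 15.6% on the spike-in controls. In the 3 other settings it ran from 11.0% to 11.3%. These counts of members are near those shares too. At 2-fold the count was 0 of 10 as well, against 4.01% of all genes higher and 0.577% lower. The largest differences were those of the BH3-only genes Pmaip1 and Bbc3, which were higher with the agonists, and of Bcl2l11, Bid and Bcl2l1, which were lower. For Bcl2l1 this holds only for the brighter of its 2 probes (log2 ratio -0.35), since the dimmer one gave 0.10. No direction can thus be given for Bcl2l1. Positive log2 ratios mean a higher value with the agonists. Before the ratio was taken, each array was brought to a common 75th percentile (672 signal units for the agonists, 569 for the antagonists). The error given with each ratio combines the software's own error estimates of the spots. It covers the measurement of a spot and not the spread between ovaries. The median log2 ratio of the 15260 genes was -0.10, so values are also given relative to this median gene.

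**Figure D1:**
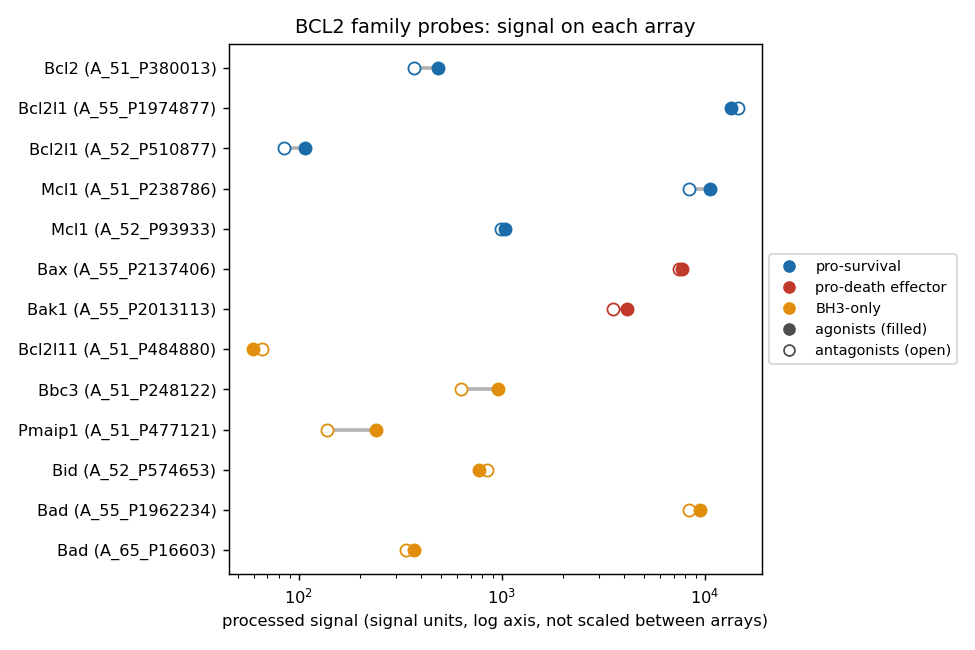
Processed signal of each of the 13 probes, in signal units on a log axis, without scaling between the arrays; filled points stand for the agonists, open points for the antagonists, and colours for the role of the gene. The widest gap is that of Pmaip1 (240 against 138), whereas Bax (7677 against 7433) and the dimmer Mcl1 probe (1036 against 993) nearly coincide.

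Among the pro-survival genes, Bcl2, the founding member of the family, was measured by a probe for the transcript NM_177410. Its signal was 484 units with the agonists and 369 with the antagonists. After scaling its log2 ratio was 0.15 ± 0.21, or 1.11-fold, which is 0.25 above the median gene. The ratio itself is smaller than the error of the spots, and its distance from the median gene is slightly larger.

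Mcl1 encodes a short-lived guardian that oocytes and many other cells need to survive. Its brighter probe (NM_008562) gave 10550 units with the agonists and 8286 with the antagonists, for a log2 ratio of 0.11 ± 0.20. Its dimmer probe, for the same transcript, gave 1036 and 993 units and a log2 ratio of -0.18 ± 0.20. The probes disagreed in sign and lay 0.29 apart on the log2 scale, so no direction can be given for Mcl1.

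Bcl2l1 is spliced into the pro-survival BCL-XL and a short pro-death form, and the files do not give the position of its probes within the transcript. Its brighter probe (NM_009743) gave 13438 units with the agonists and 14467 with the antagonists, and its log2 ratio was -0.35 ± 0.20. Its dimmer probe, at 107 and 84.3 units, gave 0.10 ± 0.23. These probes disagreed in sign and lay 0.45 apart, so no direction can be given for Bcl2l1 either. Over the 3781 genes for which 2 or more probes passed this criterion on each array, the brightest 2 probes of a gene differed by a median of 0.14, and 88.3% of these genes had a smaller difference than Bcl2l1. The 2 ratios of 24.8% of these genes had opposite signs, as those of Bcl2l1 and Mcl1 did. Bcl2, with 1 probe, had no such comparison.

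**Figure D2:**
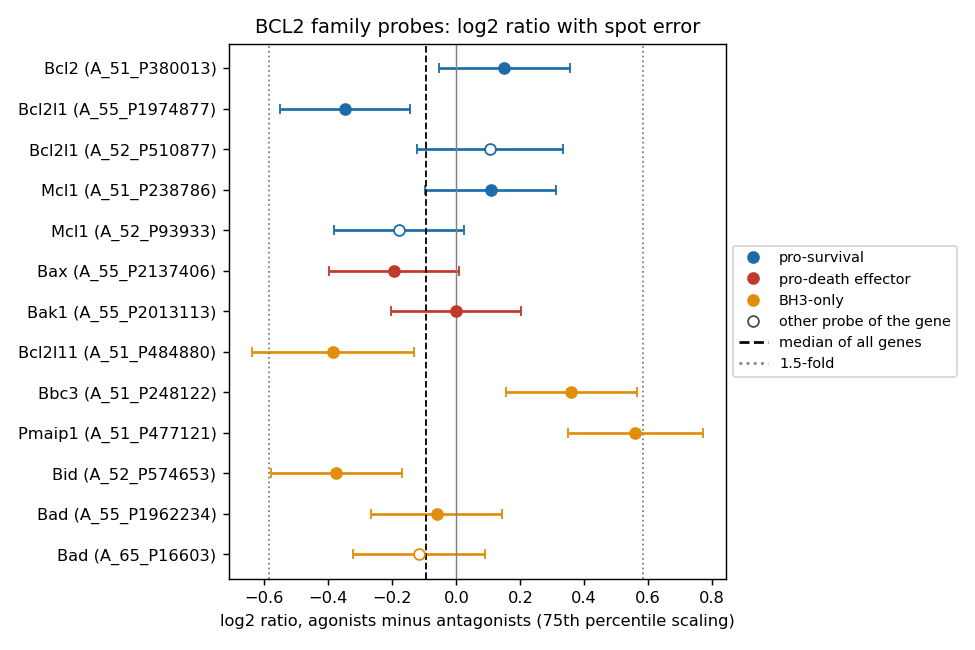
Log2 ratio of each of the 13 probes, agonists minus antagonists, after scaling on the 75th percentile; bars are the software's error of the ratio, open points are the dimmer probe of a gene with 2 probes, the dashed line is the median of all genes (-0.10) and the dotted lines mark 1.5-fold. All points lie inside the 1.5-fold lines, Pmaip1 (0.56) is the highest, and the 2 probes of Bcl2l1 and of Mcl1 fall on opposite sides of 0.

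The effectors were nearly level. Bax (NM_007527) gave 7677 units with the agonists and 7433 with the antagonists, for a log2 ratio of -0.19 ± 0.20. Bak1 (NM_007523) gave 4138 and 3502 units, a log2 ratio of -0.00 ± 0.20 after scaling. Relative to the median gene these were -0.10 and 0.09, both within the error of the spots. Bax and Bak1 can stand in for each other in many cells, and neither differed between the arrays beyond that error.

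The BH3-only genes were the most spread of the family, from -0.39 to 0.56. Pmaip1 encodes NOXA, which binds MCL1 and promotes its degradation. Its probe (NM_021451) gave 240 units with the agonists and 138 with the antagonists. The log2 ratio was 0.56 ± 0.21, or 1.47-fold. It was the highest of the family and lay 0.66 above the median gene, 3.10 times its spot error. Of all genes, 90.3% had a lower ratio. Dim probes vary more, however, and Pmaip1 was in the dimmest of 4 equal classes of mean signal, where 15.8% of genes were at least 1.5-fold higher and 83.6% had a lower ratio than Pmaip1.

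Bbc3 encodes PUMA, which binds every pro-survival member and can act on Bax and Bak1 directly. Its probe (NM_133234) gave 954 units with the agonists and 629 with the antagonists, for a log2 ratio of 0.36 ± 0.20, or 1.28-fold. This was 0.45 above the median gene, 2.22 times its spot error, and 85.1% of all genes had a lower ratio. Pmaip1 and Bbc3 were the only 2 members that lay more than 2 spot errors from the median gene. The share of all genes past that distance was not computed. The SD over all genes was 0.48, larger than these spot errors, so the count does not set Pmaip1 and Bbc3 apart. Both are known p53 targets.

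Bcl2l11 encodes BIM, the BH3-only protein that answers withdrawal of growth factors under FOXO control. Its probe (NM_207680) gave 59.6 units with the agonists and 65.9 with the antagonists, and the raw spot was only 2.36 and 2.64 times as bright as the local background. The log2 ratio was -0.39 ± 0.25, which is 0.29 below the median gene. Bid, whose cleavage by caspase-8 links death receptors to mitochondria, gave 771 and 846 units (NM_007544), a log2 ratio of -0.38 ± 0.20. Both were lower with the agonists by between 1 and 2 spot errors relative to the median gene.

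Bad, which is held inactive by phosphorylation when survival factors signal through AKT, gave 9399 units with the agonists and 8295 with the antagonists on its brighter probe (NM_007522), a log2 ratio of -0.06 ± 0.20. Its dimmer probe gave 367 and 337 units and a log2 ratio of -0.12 ± 0.21. The probes of Bad thus differed by 0.06, well within their errors, and both lay close to the median gene.

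FOXO3 is known to induce both Bbc3 and Bcl2l11, and p53 to induce Bax, and these promoters are shown because their genes take different places in the order of ratios. Promoter windows around annotated start sites (RefSeq, GRCm38.p6) were at hand for 9 of the 10 members, all but Pmaip1, and came to 15 windows. The FOXO motif GTAAACA, searched on both strands, was found in 2 of these 15 windows and in 3.65% of all 32851 windows. The 2 windows belong to Bcl2l11, where the motif begins 227 bases before the start (stretch at chr2:128125788-128125857, plus strand), and to Bbc3, where it begins 167 bases before the start (chr7:16310054-16310140, plus strand). The p53 decamer was found in 1 window of the members, that of Bax, 201 bases before the start (chr7:45467050-45467139, minus strand), and in 8.36% of all windows. In the stretches below, read in the direction of the gene, capitals mark the match.
Bcl2l11: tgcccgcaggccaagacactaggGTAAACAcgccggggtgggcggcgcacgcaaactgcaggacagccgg
Bbc3: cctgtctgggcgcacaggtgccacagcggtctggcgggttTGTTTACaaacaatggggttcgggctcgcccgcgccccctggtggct
Bax: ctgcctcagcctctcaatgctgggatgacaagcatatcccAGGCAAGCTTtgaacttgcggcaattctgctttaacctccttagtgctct
Bbc3, with a log2 ratio of 0.36, and Bcl2l11, with -0.39, carry the same FOXO letters in their windows. Bax, the member with the p53 letters in its window, had a ratio of -0.19. A match is only a description of the letters, and binding was not measured. The GC box GGGCGG, a motif of promoters rich in CpG, was found in 10 of the 15 windows, of 7 genes, and in 35.7% of all windows. It overlapped 0 of the matches in capitals. The CRE TGACGTCA and the TATA box TATAAA, found in 1.79% and 13.6% of all windows, were in 0 of the 15.

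Pro-survival and pro-death members were then set side by side. The median log2 ratio was 0.11 for the 3 pro-survival genes, -0.10 for the 2 effectors and -0.06 for the 5 BH3-only genes, against -0.10 for all genes. The median of the pro-survival genes lay 0.17 above that of the 7 pro-death genes. Without replicates this difference has no error of its own. It is that of a single combination, Mcl1 over Bad, with the brighter Mcl1 probe, and no direction could be given for Mcl1. The means of the groups were -0.03 and -0.01. Of the 10 members, 4 had a log2 ratio above 0, against 37.7% of all genes. The SD over the members was 0.32, compared with 0.48 over all genes. Members lay on both sides of the median gene.

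The balance of each pro-survival gene with each pro-death gene is free of a common scaling factor between arrays, which cancels within an array. It is not free of a normalization that acts on signal. The median ratio of all genes was 0.03 in the dimmest of 4 equal classes of mean signal and -0.16 in the brightest. The ratio of Bcl2 to Bax was higher with the agonists by 0.35 ± 0.29 on the log2 scale, or 1.27-fold. The ratio of Bcl2 to Bak1 was higher by 0.15 ± 0.29, and that of Mcl1 to Bax by 0.30 ± 0.29 with the brighter Mcl1 probe but by 0.02 with the dimmer one. The brighter Bcl2l1 probe went the other way, with -0.15 ± 0.29 against Bax and -0.35 ± 0.29 against Bak1, and the dimmer probe reversed the sign of both (0.30 and 0.11). No common shift of pro-survival over effector genes was seen, and each of the differences with brighter probes was either within its spot error or exceeded it by less than 0.10.

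Over all 21 combinations of a pro-survival with a pro-death gene, 12 were above 0 and 9 below with the brighter probe of each gene, and 13 and 8 with the dimmer probes. The tally of single genes turned with the probe: from 5 to 3 of 7 above 0 for Mcl1 and from 2 to 5 of 7 for Bcl2l1, while Bcl2, which has 1 probe, had 5 of 7 in both. The combinations share genes and are not independent. Only 2 were larger than 2 spot errors: Bcl2l1 over Pmaip1 (-0.91 ± 0.29) and Bcl2l1 over Bbc3 (-0.71 ± 0.29). Both rest on the brighter Bcl2l1 probe, and with the dimmer one they were -0.46 and -0.25. Quantile normalization made both smaller, with log2 ratios of -0.21 for Bcl2l1, 0.53 for Pmaip1 and 0.39 for Bbc3. NOXA is known to act on MCL1, and the ratio of Mcl1 to Pmaip1 was lower with the agonists by 0.45 ± 0.29, with the brighter Mcl1 probe. For Bcl2 the combinations ran from -0.41, over Pmaip1, to 0.54, over Bcl2l11.

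**Figure D3:**
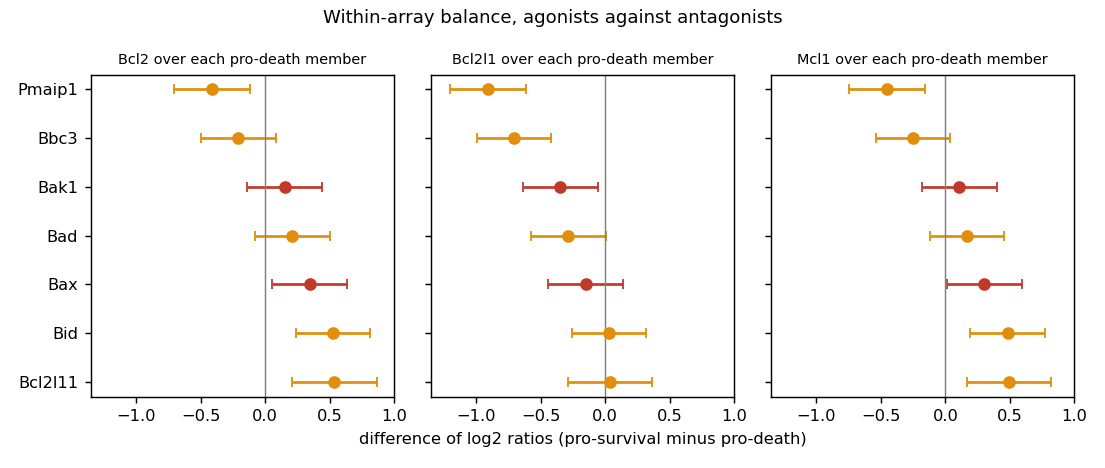
Difference of log2 ratios, pro-survival minus pro-death gene, for each of the 21 combinations; points in red are effectors and in orange BH3-only genes, bars are the combined spot errors, and genes with 2 probes are shown by the brighter one. Bcl2 and Mcl1 each lie above 0 in 5 of 7 combinations and Bcl2l1 below 0 in 5 of 7, and with the dimmer probes Mcl1 has 3 and Bcl2l1 5 of 7 above 0.

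The other genes of the mitochondrial and death receptor pathways were taken from 8 lists with 75 genes, of which 69 were well above background on both arrays. Their median log2 ratio was -0.11, against -0.10 for all genes. Of the 69, 4 were at least 1.5-fold higher in the agonist culture and 2 were lower by that much, beside the 9.26% and 4.28% of all genes.

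The remaining members of the wider BCL2 family included the largest ratios of the pathway. Bcl2a1d, a pro-survival gene of blood cells and an NF-κB target, had 1505 units with the agonists and 389 with the antagonists, for a log2 ratio of 1.71. It has near-identical copies: Bcl2a1a and Bcl2a1b could not be matched to a probe, Bcl2a1c was well above background on 1 array only, and the Bcl2a1d probe cannot be assigned to 1 copy with certainty. The pro-survival genes Bcl2l2 (-0.09) and Bcl2l10 (0.00), the latter abundant in oocytes, lay near the median gene. On the pro-death side the BH3-only gene Bik had a ratio of 0.83 (123 against 58.6 units) and Bcl2l14 of 1.03 (102 against 42.2 units), from dim spots. The other probe of Bcl2l14 was not well above background on either array. Bok, a BAX-like gene of reproductive tissues, had -0.28, and Bmf, Bnip3 and Bnip3l lay between -0.11 and -0.02. Hrk was well above background on 1 array only.

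Downstream of the mitochondria, the list of the apoptosome and caspases had a median of -0.19. Of its 12 genes, 4 were above 0, beside 37.7% of all genes, and 0 were past 1.5-fold in either direction. Casp9, the caspase of the apoptosome, had -0.27, and Cycs, the cytochrome c released from mitochondria, had -0.41, while Casp6 (0.53) and Casp8 (0.39) were the highest of the list. The 7 inhibitors of apoptosis and their antagonists had a median of -0.07. Of 8 measured genes of death receptors and their adaptors, the ligand gene Tnfsf10 (TRAIL) was at least 1.5-fold higher (0.89; 177 against 80.9 units), while the receptor gene Fas had 0.35 and the receptor gene Tnfrsf10b had -0.39. The ligands Fasl and Tnf were not well above background on either array. The 6 genes of mitochondrial channels and carriers, among them Vdac2, the outer membrane channel that binds Bak1, all had ratios below 0, with a median of -0.21. Only 1 of them lay above the median gene. All but Ppif were bright, and the brightest of 4 equal classes of mean signal had a median of -0.16 over all its genes.

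Upstream, the 16 genes of the p53 family and its targets had a median log2 ratio of -0.11. Of the 16, 7 were above 0, beside 37.7% of all genes, and 0 were past 1.5-fold. Trp53 had -0.11 and Trp63, the guardian of oocytes, -0.12. Of well-known p53 targets, Cdkn1a had 0.13, Mdm2 -0.16, Phlda3 0.25 and Ccng1 0.05. The ratios of this list ran from -0.46 to 0.25.

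Regulators of BH3-only genes had a median of -0.33, against -0.10 for all genes. Of the 11, 8 were below 0 and 3 above it, beside 37.7% of all genes above 0. Relative to the median gene, 5 of the 11 lay above it. Ddit3 (CHOP), which is known to induce Bcl2l11 and Bbc3 under stress of the endoplasmic reticulum, was 2.50-fold lower with the agonists (629 against 1332 units, log2 ratio -1.32). Atf4, its activator and an inducer of Pmaip1, was 1.63-fold lower (log2 ratio -0.71), and its other probe gave -0.49. Foxo3 had -0.34, from a probe dimmer than that of Bcl2l11 (42.2 against 45.1 units), and Foxo1 had 0.09.

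**Figure D4:**
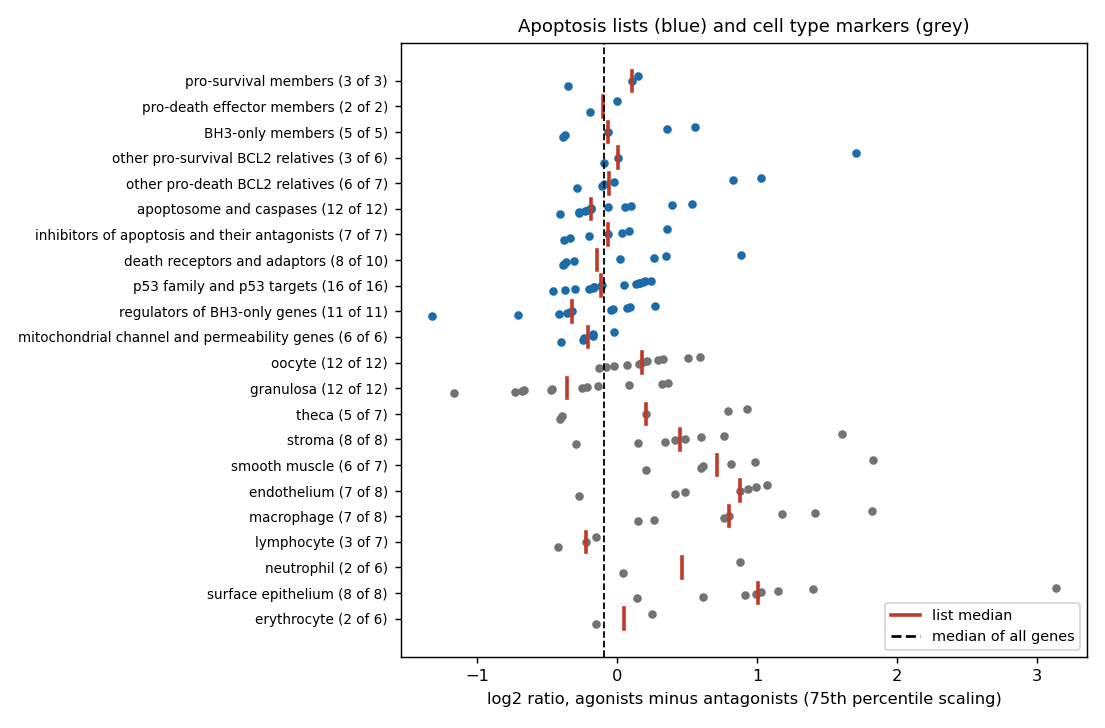
Log2 ratio of every gene well above background on both arrays in the apoptosis lists (blue) and in the lists of cell type markers (grey), agonists minus antagonists after scaling on the 75th percentile; red bars are list medians, the dashed line is the median of all genes, and the numbers after each name are genes measured of genes listed. The 3 lists of family members lie near the dashed line, whereas the medians of smooth muscle, endothelium, macrophage and surface epithelium markers lie between 0.71 and 1.01.

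Summed signals of marker lists are given as a description, in which bright probes weigh most. The labelled tissue was checked on markers: all 12 oocyte markers and all 12 granulosa markers were well above background on both arrays. Several lists of cell type markers had medians further from the median gene than the BCL2 family. Over all genes, 37.7% had a ratio above 0. Surface epithelium had a median of 1.01 with 8 of 8 genes above 0, and its summed signal, in units of the 75th percentile of the array, stood at 39.1 for the agonists against 17.9 for the antagonists. Macrophages (7 of 7 measured genes above 0; summed signal 13.9 and 10.3), smooth muscle (6 of 6; 39.3 and 24.1), endothelium (6 of 7; 75.8 and 61.7) and stroma (7 of 8; 418 and 343) had list medians above 0 as well. Granulosa markers had a median of -0.36, with 9 of 12 below 0, where Foxl2 (0.32), Cyp19a1 (0.37) and Wnt4 (0.09) were above 0. Their summed signal was 919 and 1089, of which 83.7% and 81.8% came from Kctd14 alone (log2 ratio -0.21). The theca list was mixed, with 3 of 5 measured genes above 0 and summed signals of 87.8 and 85.5, and Lhcgr was not well above background on either array. Oocyte markers had a median of 0.18, with 9 of 12 above 0 and summed signals of 280 and 282. Of lymphocytes, neutrophils and erythrocytes only 3 of 7, 2 of 6 and 2 of 6 markers were well above background on both arrays, and Cd8a, S100a8, Ngp and Hbb-bs were among those above it on neither. The summed signals of these lists were 5.27 and 5.99 for lymphocytes, 7.21 and 6.85 for neutrophils, and 0.249 and 0.252 for erythrocytes. Of the neutrophil sum, 95.1% with the agonists and 97.1% with the antagonists came from Elane alone. In RNA of whole tissue, fewer cells of a type and less RNA per cell cannot be told apart, and the part of these cell types in the ratios of Pmaip1, Bbc3, Bid and Bcl2l1, or in that of Bcl2a1d, was not tested.

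How far the ratios depend on the scaling was examined gene by gene. Without any scaling, all 10 members moved up by 0.24, and Pmaip1 (0.80) and Bbc3 (0.60) then passed 1.5-fold, where 15.5% of all genes were at least 1.5-fold higher and 1.29% lower. Relative to the median gene, a common factor per array cannot move a member, and settings of spots and probes cannot move a gene with 1 probe of 1 spot except through the median gene. Quantile normalization, loess and normexp background correction with quantile normalization could move them. Under these 3, in that order, Pmaip1 lay 0.59, 0.60 and 0.40 above the median gene and Bbc3 0.44, 0.45 and 0.45. Bid lay at -0.29, -0.28 and -0.25 and Bcl2l11 at -0.39, -0.37 and -0.25. Bax (-0.04, -0.05 and -0.14) stayed closer to the median gene. Bcl2l1, Mcl1 and Bad changed sides when another probe represented the gene.

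**Figure D5:**
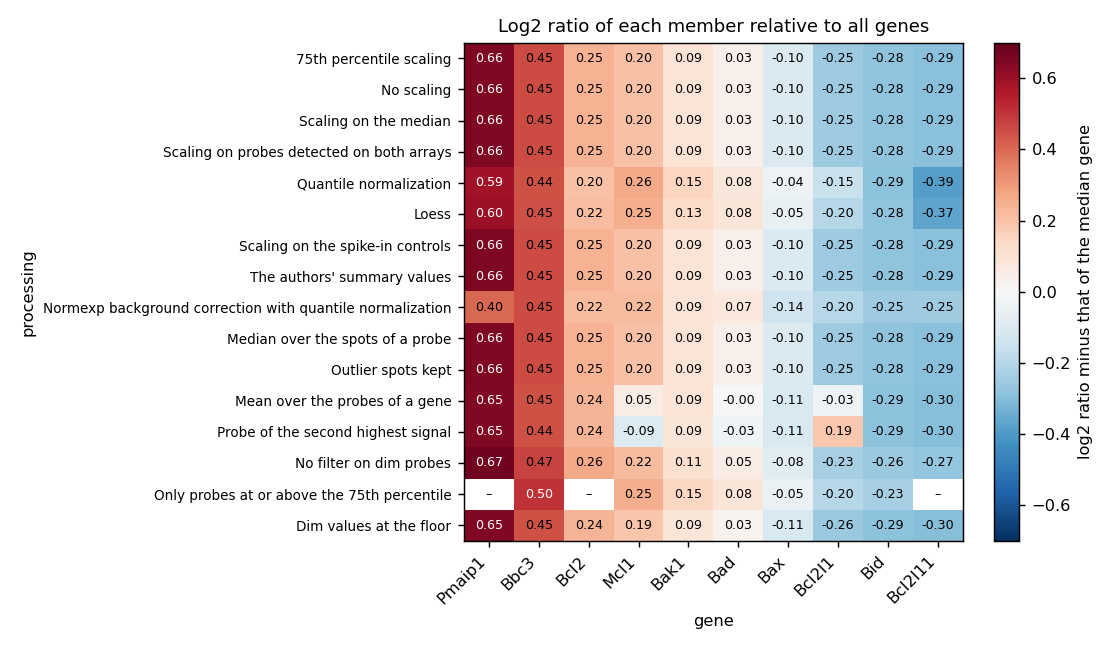
Log2 ratio of each member minus that of the median gene (colour and number) under 16 ways of processing the deposited signals, with members ordered by their main ratio; a dash marks a gene too dim for the filter. Many settings give equal numbers by construction, Pmaip1 is lowest under normexp (0.40), and Bcl2l1 and Mcl1 change sign when the dimmer probe is used.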

How the data were processed

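Total RNA of cultured ovaries was labelled with Cy3 and hybridised to SurePrint G3 Mouse GE 8 x 60K arrays, 1 per group, on 1 slide. The authors deposited the intensity of each spot as read by Agilent Feature Extraction (10.10.1.1), background-corrected on a linear scale without scaling between arrays, and a summary table, which equals the processed signal times 1.99 (agonists) or 2.19 (antagonists). From the deposited intensities, control spots and outlier spots were left out, log2 values were reduced by the 75th percentile of the array, and spots of a probe were averaged. A probe counted as well above background if the software marked more than 50% of its spots so. A gene was represented by its brightest such probe. Of the probes, 27230 were named through RefSeq transcripts listed for GRCm38. For the probes these transcripts gave names only, since the array was designed on mm9. The promoter windows were taken apart from the probes, around RefSeq start sites on GRCm38.p6. The members and lists were chosen with earlier results of these data known. Genes named beside the members are those of the lists at least 1.5-fold apart, and others picked after their values were seen for their known roles. With 1 array per group no test was made; the number of arrays limits the precision.

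Alternatives were to leave out the scaling, to scale on 8 spike-in probes, on the median or on the probes detected in each group, to normalize by quantiles or loess (span 0.3), to take the authors' summary values, to correct the background by normexp on the median spot signal (offset 50, then quantiles), and to summarise or filter spots and probes otherwise. Software was R 4.3.3 with limma 3.58.1, and Python 3.11.15 with numpy 2.4.6, pandas 2.3.3, statsmodels 0.14.6 and matplotlib 3.10.9. The scripts were tested on simulated data, with planted changes larger than the ratio of any member and noise below the spot errors. Changes of the size seen in the members were not covered. Some single genes of the lists are not reported here.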

Additional observations from a re-analysis of the deposited data

How the results depend on the processing

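No paired analysis was possible because a group holds a single array and nothing was tested. The number of members at least 1.5-fold higher, 0 with scaling on the 75th percentile, was 2 (Pmaip1 and Bbc3) without scaling and when scaled on the spike-in controls. It was 1 (Pmaip1) with scaling on probes detected on both arrays, with loess and with the authors' summary values. The share of all genes at least 1.5-fold higher was 9.26% as reported, 15.5% without scaling and 15.6% on the spike-in controls. That share was 11.0% with scaling on probes detected on both arrays, 11.0% with loess and 11.3% with the authors' values. The median log2 ratio of the 10 members, -0.03, was 0.21 without scaling and 0.21 on the spike-in controls, and ran from -0.09 to 0.21 over the settings. These changes follow the median of all genes, which was -0.10 as reported, 0.15 without scaling and 0.15 on the spike-in controls. The share of higher among all genes past 1.5-fold was 68.4% as reported, 92.3% without scaling, 58.7% when scaled on the median, 79.9% when scaled on probes detected on both arrays and 79.9% with normexp, 80.4% with loess, 81.8% with the authors' values and 92.4% on the spike-in controls. The difference of the pro-survival and pro-death medians was 0.17. A common factor per array could not move it, nor could other handling of spots and dim values that these members do not have. Against the BH3-only genes alone, the middle pro-death member was Bad as before. The 10 of 18 alternatives that left the difference as it was were all of these kinds, so it could not have changed there. In the other 8 it ran from -0.06 (dim probes left out by the 75th percentile) to 0.22 (dimmer probes), with -0.02 for means in place of medians. The counts of members at least 1.5-fold lower and at least 2-fold higher or lower stayed at 0 in every setting. Many of the 147 ratios of single members under the alternatives could not move by construction. Other summaries of spots and other filters leave a member of 1 unmarked spot per probe at its value. Another choice of probe cannot move a gene with 1 probe. Of the 147, 21 moved by more than their spot error. Of these 21, 18 came without scaling or on the spike-in controls and 3 from another choice of probe for Bcl2l1 (-0.12 as the mean of its probes, 0.10 by the dimmer probe) and Mcl1 (-0.18 by the dimmer probe). The filter on the 75th percentile left out Pmaip1, Bcl2 and Bcl2l11. Bcl2l11 is limited by its signal, which lies close to the background.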
